A study of Homo sapiens with 6 samples.

Results

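KIT and 8 other growth factor receptor genes were followed in Kasumi-1 cells, an acute myeloid leukemia line with the t(8;21) translocation that fuses RUNX1 (AML1) to RUNX1T1 (ETO) and that depends on mutant KIT. The members were the rows of the deposited expression table whose Ensembl identifiers carry the symbols KIT, FLT3, CSF1R, CSF3R, CSF2RA, CSF2RB, IL3RA, IL6R and IGF1R in GENCODE release 29. All 9 were found among 32364 genes. The study sequenced mRNA of 6 Kasumi-1 samples to see which genes I13 alters, 3 of them control and 3 kept for 48 h in I13 at 0.5 µM. I13 inhibits histone deacetylases, the enzymes that take acetyl groups off histones, and carries an indole-3-butyric acid group. Control cells were given matched DMSO, its solvent. All 6 libraries come from this single cell line, so they carry the same fusion gene and the same KIT mutation, and gene-level values do not separate the mutant from the normal KIT allele. The labels number the samples of a group but do not say whether they were separate cultures grown on separate days, so p-values measure the spread between these samples.

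Growth factor receptors on myeloid cells belong to several families. KIT binds stem cell factor, FLT3 binds FLT3 ligand and CSF1R binds M-CSF, and these related receptors are tyrosine kinases themselves, as is the insulin-like growth factor receptor IGF1R. The receptors for G-CSF (CSF3R), GM-CSF and interleukin-3 have no kinase of their own and signal through JAK kinases. CSF2RA and IL3RA are the ligand-binding chains for GM-CSF and interleukin-3, and both pair with the shared signaling chain CSF2RB. IL6R binds interleukin-6 and signals through IL6ST (gp130). KIT and FLT3 mark progenitor cells, while CSF3R and CSF1R guide granulocyte and monocyte development.

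Expression was deposited as FPKM, the fragments on a gene scaled to exon length and to the depth of the library. Levels of different genes can be set side by side only as far as that length matches the transcripts present. Multiplying FPKM by the exon length of each gene gave back whole fragments. The library depths by which FPKM had been scaled lay between 15281052 and 17221345 fragments. Control replicate 3 and I13 replicate 2 stood apart from the other 4 libraries on the first principal component, which carried 43.3% of the variance over 4133 genes. Values within this pair and within the other 4 libraries are therefore given beside the results, and no batch is named in the labels. All 13 myeloblast markers were present at a mean of at least 1 FPKM, with MPO between 10241 and 12450 FPKM and CD34 between 38.3 and 45.9 FPKM. The mean was lower in I13 cells for 8 of the 13 and higher for 5, with CTSG going from 192 to 158 FPKM, ANPEP from 24.0 to 30.6 FPKM and CD33 from 11.5 to 13.2 FPKM. Markers of other cell types were low. The 3 stromal markers measured were listed at 0, and the summed monocyte and macrophage markers did not exceed 0.0673 FPKM in any library. The summed mast cell and basophil markers, from cells that also carry KIT, were 0.656 to 0.810 FPKM in control cells and 0.438 to 0.775 FPKM after I13. The summed erythroid markers did not exceed 0.145 FPKM and the summed megakaryocyte markers did not exceed 0.613 FPKM. T cell markers summed to between 1.38 and 2.15 FPKM and B cell markers to between 1.46 and 2.60 FPKM, mostly CD8A and CD79A, and the epithelial sum of 20.8 to 26.6 FPKM was almost entirely EPCAM. These markers' part in the results was not tested. In bulk samples, fewer cells of a type and less RNA per cell cannot be told apart.

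By FPKM, the 9 receptors covered a wide range of levels, with KIT highest. In fragments of control replicate 1, before scaling to exon length, KIT had 22644 and CSF3R 13328. The length used takes in all annotated exons of a gene, 5563 bases for KIT and 8429 bases for CSF3R. FPKM is understated where the transcripts present are shorter than that. The distance between KIT and CSF3R and the share of KIT therefore depend on the lengths used. KIT had a mean of 225 ± 12.2 FPKM (SD, n = 3) in control and 216 ± 17.1 FPKM (SD, n = 3) in I13 cells and ranked between 125 and 146 among the 32364 genes of a library. Between 62.7% and 68.7% of the summed FPKM of the 9 receptors was KIT. CSF3R came second with 91.2 ± 0.491 FPKM in control and 76.0 ± 3.98 FPKM in I13 cells (SD, n = 3), followed by IGF1R with 13.2 ± 0.699 and 12.6 ± 0.443 FPKM. CSF1R was next with 6.66 ± 0.458 FPKM in control and 4.84 ± 0.496 FPKM in I13 cells. FLT3, IL3RA and CSF2RB followed between 3.36 and 5.35 FPKM, and neighbours among these 3 had overlapping ranges in both groups. IL6R and CSF2RA were lowest, with control means of 1.16 and 1.08 FPKM and I13 means of 0.941 and 0.805 FPKM. In control cells the ranges of CSF1R and FLT3 were apart and those of IL6R and CSF2RA overlapped, whereas in I13 cells CSF1R and FLT3 overlapped and IL6R and CSF2RA were apart. The order of the 9 means was the same in both groups.

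**Figure D1:**
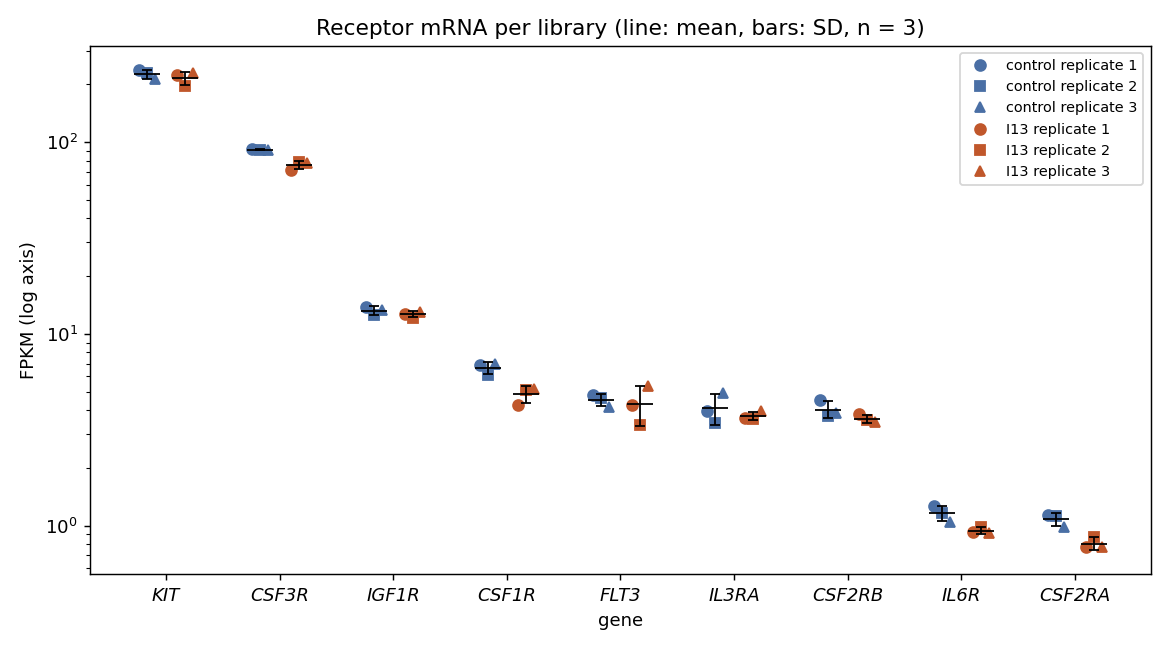
FPKM of each receptor gene (log axis) in the 3 control and 3 I13 libraries, with a marker for each replicate, a line at the group mean and bars of 1 SD. KIT lies between 196 and 236 FPKM in all libraries, and the I13 points lie below all control points for CSF3R, CSF1R, IL6R and CSF2RA.

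No receptor passed the test for a difference between I13 and control cells over all genes, yet the fold change of all 9 was below 0. Differences were tested as log2(FPKM + 0.1) with limma, two-sided, over the 18726 genes that averaged 0.1 FPKM or more, a scale that understates the change of genes with low FPKM. The call required a Benjamini-Hochberg adjusted p under 0.05 together with a log2 fold change of 0.58 or more in either direction, the thresholds of the study's methods. Limma called 0 of the 9 receptors and 0% of all genes tested. The study itself reports both downregulated and upregulated genes, and its methods name no test for the sequencing data, so the 2 results are not from a like test. At an unadjusted p under 0.05, 3 of the 9 were lower (CSF1R, CSF3R and CSF2RA) and 0 were higher, against 2.59% lower and 2.55% higher among all genes. With the fold threshold added, 0 of the 9 were called at the unadjusted p, against 1.2% of all genes lower and 1.17% higher. The 3 I13 values lay below the 3 control values for 4 of the 9 (these 3 genes and IL6R), against 4.64% of all genes tested, and above them for 0 of the 9, against 4.88%. The median log2 fold change of the 9 was -0.15, against 0.0058 for all genes tested. Of all genes, 48.2% had a log2 fold change below 0 and 51.8% above. Relative to the control mean, all 9 receptors were lower in I13 replicates 1 and 2 and 7 were lower in I13 replicate 3. The direction rested on 1 library for 3 genes, since without I13 replicate 2 the log2 fold changes of KIT and FLT3 were 0.0040 and 0.077, and without control replicate 3 that of IL3RA was 0.017.

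**Figure D2:**
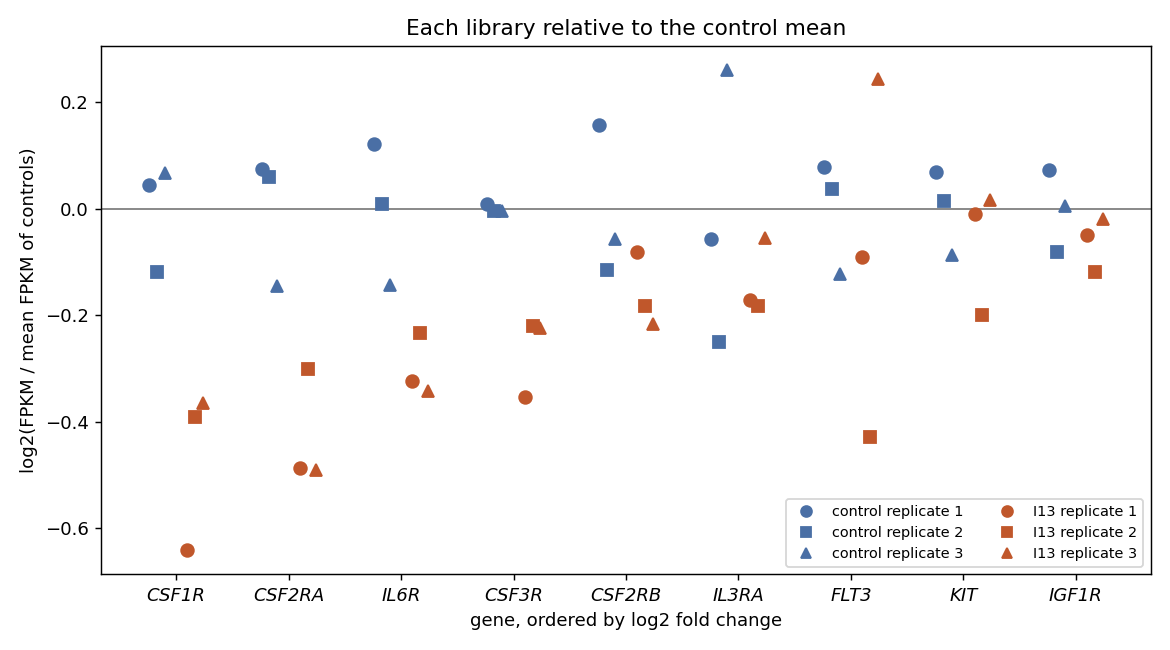
Each library's FPKM relative to the mean of the 3 control libraries, as a log2 ratio, for the 9 genes ordered by their log2 fold change. I13 points lie below every control point for CSF1R, CSF2RA, IL6R and CSF3R, and I13 replicate 2 has the lowest FLT3, KIT and IGF1R value of all libraries.

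CSF1R, the M-CSF receptor of the monocyte lineage, had the largest log2 fold change of the 9 over all 6 libraries. Its level was 6.87, 6.13 and 6.97 FPKM in control replicates 1, 2 and 3 and 4.27, 5.07 and 5.17 FPKM in I13 replicates 1, 2 and 3. All 3 I13 libraries were lower than all 3 control libraries, and the I13 mean was 0.727 of the control mean. Each control value rested on 542 to 609 fragments and each I13 value on 350 to 436. I13 against control gave a log2 fold change of -0.46 with a standard error of 0.099 (95% interval from -0.69 to -0.22, unadjusted p = 0.00244, adjusted p = 0.583 by limma). The 4 libraries gave -0.46 and the pair gave -0.45, so the difference was as large in both sets. Limma's voom on the recovered fragments gave a log2 fold change of -0.46 and an adjusted p of 0.0895. A term for the library pair gave an adjusted p of 0.487 by limma and, in a voom fit chosen after the data were seen, of 0.00592. The gene, ENSG00000182578, spans bases 150053291 to 150113372 of chromosome 5 in GRCh38 (minus strand).

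CSF3R, the G-CSF receptor of neutrophil precursors, was second of the 9 by FPKM and the one with the tightest control values. These were 91.8, 91.0 and 91.0 FPKM in control replicates 1, 2 and 3, against 71.4, 78.4 and 78.2 FPKM in I13 replicates 1, 2 and 3. The groups did not overlap, and the I13 mean was 0.833 of the control mean. With at least 9581 fragments per library, counting alone gives an error of at most 1.02%. I13 against control gave a log2 fold change of -0.27 with a standard error of 0.050 (95% interval from -0.38 to -0.15, unadjusted p = 0.00105, adjusted p = 0.517 by limma). Its interval ends short of the threshold of 0.58. Within the 4 libraries the log2 fold change was -0.29 and within the pair it was -0.21. The adjusted p by voom was 0.0985. Once the pair had its own term, the adjusted p was 0.47 by limma and 0.00131 by voom. Among all genes CSF3R ranked 341 to 353 in control cells and 415 to 461 after I13. The gene, ENSG00000119535, spans bases 36466043 to 36483278 of chromosome 1 (minus strand).

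By voom with the term for the library pair, CSF1R and CSF3R were 2 of 9 receptors with a lower level at an adjusted p under 0.05, against 0.375% of the 13853 genes tested, and neither reached the fold threshold. None of the 9 was higher by that rule, against 0.231% of genes. Limma with the same term called 0 of the 9 and 0% of the 18726 genes at the adjusted p. Without that term voom called 0 of the 9, against 0.0144% of all genes lower and 0.0433% higher. With each library left out of the voom fit without the term, the adjusted p of CSF1R lay between 0.0281 and 0.718 at log2 fold changes from -0.52 to -0.38, and that of CSF3R between 0.0143 and 0.806 at log2 fold changes from -0.29 to -0.22. The adjusted p was lowest for both without I13 replicate 2, the one omission that brought it under 0.05, and highest for both without I13 replicate 1.

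The sequences before the start sites of these 2 genes and KIT are shown because CSF1R and CSF3R are targets of myeloid transcription factors. For CSF1R these factors include RUNX1, the one that is fused in Kasumi-1 cells. The sequences are the 250 bases upstream of RefSeq start sites in GRCh38.p14, 5′ to 3′ on the strand of the gene. An entry was present for 8 of the 9 receptors. Capitals mark matches on either strand to a RUNX motif (TGTGGT or TGCGGT), a PU.1 motif (GAGGAA) or a C/EBP motif (TTNNGNAA), and no 2 of the matches marked here overlap.
CSF1R, downstream start site, chr5:150086555-150086804, minus strand: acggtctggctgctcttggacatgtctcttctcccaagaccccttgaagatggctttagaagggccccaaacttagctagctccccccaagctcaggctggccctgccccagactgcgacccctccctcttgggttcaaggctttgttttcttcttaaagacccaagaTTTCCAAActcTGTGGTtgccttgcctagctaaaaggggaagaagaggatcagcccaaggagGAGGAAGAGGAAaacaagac
CSF3R, upstream start site, chr1:36483315-36483564, minus strand: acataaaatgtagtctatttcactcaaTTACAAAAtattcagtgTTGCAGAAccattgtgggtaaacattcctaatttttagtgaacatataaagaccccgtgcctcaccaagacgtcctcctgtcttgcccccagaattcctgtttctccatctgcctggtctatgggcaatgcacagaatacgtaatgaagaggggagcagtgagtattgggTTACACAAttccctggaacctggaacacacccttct
CSF3R, downstream start site, chr1:36482914-36483163, minus strand: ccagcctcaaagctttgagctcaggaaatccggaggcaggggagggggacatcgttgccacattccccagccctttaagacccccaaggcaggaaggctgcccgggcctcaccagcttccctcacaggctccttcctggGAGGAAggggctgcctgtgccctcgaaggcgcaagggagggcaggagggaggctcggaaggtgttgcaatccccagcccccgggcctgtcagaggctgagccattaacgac
KIT, chr4:54657707-54657956, plus strand: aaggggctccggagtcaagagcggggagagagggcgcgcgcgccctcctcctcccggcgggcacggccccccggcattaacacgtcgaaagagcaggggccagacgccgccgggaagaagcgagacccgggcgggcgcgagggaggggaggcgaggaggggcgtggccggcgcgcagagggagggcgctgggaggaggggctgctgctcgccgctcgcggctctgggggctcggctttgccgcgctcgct
The CSF1R window holds a TGTGGT from 71 to 66 bases before the start site, GAGGAA side by side from 20 to 15 and from 14 to 9 bases before it, and a C/EBP match from 82 to 75 bases before it. The window of the upstream CSF1R start site, not printed, holds none of the 3 motifs. The upstream CSF3R window holds 3 C/EBP matches and the downstream one 1 PU.1 match, and the KIT window holds none. Windows of other receptors, not printed, hold matches too, also where the groups overlapped. FLT3 has 1 RUNX and 1 PU.1 match, and IL3RA and IGF1R have 1 C/EBP match each. CSF2RA has 2 PU.1 matches and 1 C/EBP match, and IL6R has matches to all 3 motifs. Of 35093 upstream windows of the same length in the table, 16.3% hold a RUNX motif, 23.6% a PU.1 motif and 33.2% a C/EBP motif. FPKM values are per gene and do not show which start site was used, and a match is a description of the sequence only.

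KIT, the receptor that the line depends on, differed little between the groups. Its level was 236, 228 and 212 FPKM in control replicates 1, 2 and 3 and 224, 196 and 228 FPKM in I13 replicates 1, 2 and 3. The groups overlapped, and the lowest value of each group was in the library that stood apart, control replicate 3 and I13 replicate 2. KIT gave a log2 fold change of -0.063 between the groups, with a standard error of 0.072 (95% interval from -0.23 to 0.11, adjusted p = 0.995 by limma). On the linear scale this interval reaches from 0.851 to 1.08 of the control level, with at least 18230 fragments per library. KIT was 0.0661% to 0.0813% of all FPKM. The gene, ENSG00000157404, spans bases 54657918 to 54740715 of chromosome 4 (plus strand).

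Among 3911 other protein-coding genes with a mean of at least 10 FPKM, CAT (catalase) followed KIT most closely across the 6 libraries. Its log2 values, centred on their mean, differed from those of KIT by a root mean square of 0.0126. CAT had 71.0, 69.8 and 64.0 FPKM in the control and 68.8, 60.05 and 68.9 FPKM in the I13 libraries, with its lowest value in I13 replicate 2 as for KIT. SLTM, SSR1, EPRS and RAD21 followed with differences from 0.0164 to 0.0217. The 6 libraries share the split into a pair and 4 others, so this likeness is a description of these libraries.

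FLT3, the related kinase receptor of early progenitors, varied more between I13 libraries than between groups. It had 4.78, 4.64 and 4.15 FPKM in the control libraries and 4.24, 3.36 and 5.35 FPKM in I13 replicates 1, 2 and 3. The I13 libraries held both the lowest and the highest of the 6 values. FLT3 gave a log2 fold change of -0.087 (95% interval from -0.47 to 0.30, adjusted p = 1.00 by limma). The value was 0.018 in the 4 libraries but -0.30 in the pair, so its direction depended on which libraries entered. FLT3 had between 233 and 342 fragments per library, and it spans bases 28003274 to 28100592 of chromosome 13 (minus strand).

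IGF1R, which binds insulin-like growth factors and supports growth in many cell types, was the third most abundant. It had 13.9, 12.5 and 13.2 FPKM in the control and 12.7, 12.2 and 13.02 FPKM in the I13 libraries. The groups overlapped, with a log2 fold change of -0.060 and a standard error of 0.062 (95% interval from -0.21 to 0.086, adjusted p = 0.994 by limma). Its fragments, between 2688 and 3225 per library, came out whole with an exon length of 13509 bases in place of the 13941 bases of GENCODE release 29, which places the gene at bases 98648539 to 98964530 of chromosome 15 (plus strand).

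GM-CSF and interleukin-3 have separate binding chains and share CSF2RB, and I13 and control values were apart for CSF2RA alone of these 3. CSF2RA, the GM-CSF binding chain, had 1.14, 1.13 and 0.977 FPKM in control replicates 1, 2 and 3 and 0.771, 0.876 and 0.769 FPKM in I13 replicates 1, 2 and 3. All I13 values were below all control values, from 62 to 75 fragments in control and from 45 to 56 fragments in I13 libraries, and counting alone gives an error of up to 14.9%. CSF2RA gave a log2 fold change of -0.38 with a standard error of 0.16 (95% interval from -0.76 to -0.0078, unadjusted p = 0.0465, adjusted p = 0.947 by limma). With each library left out its log2 fold change lay between -0.45 and -0.35. The unadjusted p was 0.109 without control replicate 1, 0.106 without control replicate 2, 0.0974 without I13 replicate 1 and 0.0869 without I13 replicate 3, but 0.0388 without control replicate 3 and 0.0436 without I13 replicate 2. In the 4 libraries its log2 fold change was -0.50, and in the pair -0.14.
IL3RA, the interleukin-3 binding chain and a surface marker of leukemic stem cells (CD123), had 3.94, 3.44 and 4.91 FPKM in the control and 3.64, 3.61 and 3.94 FPKM in the I13 libraries. The groups overlapped, with the highest value in control replicate 3. IL3RA gave a log2 fold change of -0.12 (95% interval from -0.43 to 0.20, adjusted p = 0.995 by limma), with 0.039 within the 4 libraries and -0.43 within the pair. CSF2RA and IL3RA lie in the pseudoautosomal region, from 1268800 to 1310381 and from 1336616 to 1382689 on chromosome X, whose sequence the reference repeats on chromosome Y. How fragments that match both were counted is not given in the sources used here, and their levels are uncertain for that reason.
CSF2RB, the shared signaling chain on chromosome 22 from 36913628 to 36940449, had 4.49, 3.72 and 3.88 FPKM in the control and 3.81, 3.55 and 3.47 FPKM in the I13 libraries. I13 replicate 1 lay above control replicate 2, so the groups overlapped. The log2 fold change was -0.15 (95% interval from -0.39 to 0.082, adjusted p = 0.983 by limma), with -0.17 within the 4 libraries and -0.12 within the pair.

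The interleukin-6 receptor IL6R had 1.26, 1.16 and 1.05 FPKM in the control and 0.925, 0.985 and 0.913 FPKM in the I13 libraries, from 90 to 140 fragments on a gene that spans bases 154405193 to 154469450 of chromosome 1 (plus strand). All 3 I13 libraries were below the control libraries. The log2 fold change was -0.27 with a standard error of 0.15 (95% interval from -0.62 to 0.080, unadjusted p = 0.111, adjusted p = 0.979 by limma). In the 4 libraries it came to -0.36, and in the pair to -0.081. IL6ST, its signaling partner, had 3.60 ± 0.365 FPKM in control and 3.33 ± 0.236 FPKM in I13 cells (SD, n = 3), a log2 fold change of -0.11 (95% interval from -0.36 to 0.14).
For CSF1R, CSF3R, CSF2RA and IL6R the exact permutation test on FPKM gave p = 0.1, two-sided, the smallest that 3 libraries against 3 allow. It gave p-values of 0.2 for CSF2RB, 0.4 for IGF1R, 0.6 for KIT, 0.7 for IL3RA and 0.8 for FLT3.

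**Figure D3:**
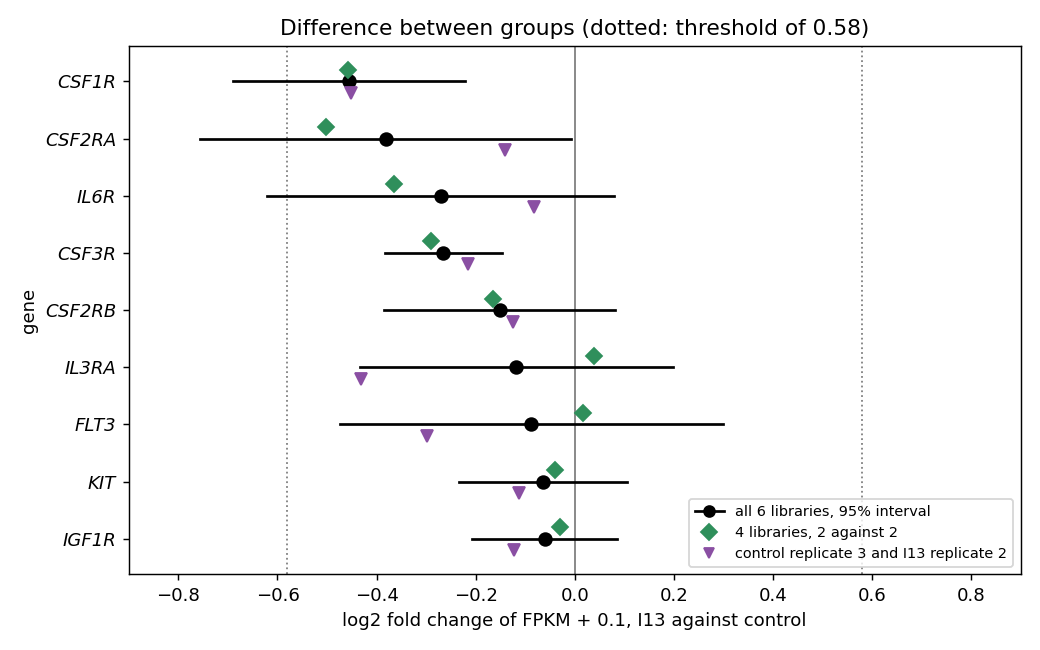
Log2 fold change of FPKM + 0.1, I13 in I13 over control cells for each receptor gene, with the 95% interval from limma over all 6 libraries, the value within 4 libraries (2 against 2) and the value between control replicate 3 and I13 replicate 2. CSF1R is near -0.46 in all 3, IL3RA and FLT3 lie above 0 in the 4 libraries and below 0 in the pair, and the dotted lines mark the threshold of 0.58.

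Ratios between receptors of the same library do not depend on the depth or scaling of that library. Their size does depend on the exon lengths used. For CSF2RA and IL3RA it also depends on how fragments of the pseudoautosomal region were counted. CSF2RB exceeded CSF2RA by 1.90 ± 0.151 on the log2 scale in control and by 2.17 ± 0.143 in I13 cells (SD, n = 3), and all 3 I13 ratios were above the control ratios. CSF1R lay below KIT, with a log2 ratio of -5.08 ± 0.145 in control and -5.48 ± 0.22 in I13 cells, and all 3 I13 ratios were below the control ratios. For both the exact permutation p was 0.1, the smallest possible, and 0.35 after adjustment over the 7 ratios tested. These 2 differences, 0.27 and -0.40, rest on the CSF2RA and CSF1R values already given. The log2 ratio of FLT3 to KIT was -5.64 ± 0.0310 in control and -5.67 ± 0.233 in I13 cells (exact permutation p = 0.9). CSF2RB and IL3RA stood at near equal FPKM, with log2 ratios of -0.013 ± 0.286 and -0.048 ± 0.127 (exact permutation p = 0.9). The I13 and control ratios also overlapped for CSF2RA to IL3RA, IL6ST to IL6R and INSR to IGF1R, with exact permutation p-values of 0.3, 0.3 and 0.4.

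Ligand mRNA for these receptors was scarce in Kasumi-1 cells for the ligand genes that were found. Of 11 ligand genes 8 are in the table, and KITLG, which encodes stem cell factor, was the only one that passed the minimum of 0.1 FPKM. KITLG had 0.797 ± 0.0486 FPKM in control and 0.727 ± 0.141 FPKM in I13 cells (SD, n = 3), from 63 to 86 fragments, with a log2 fold change of -0.13 (95% interval from -0.59 to 0.33, adjusted p = 1.00 by limma). FLT3LG, CSF1, CSF3 and IGF1 had at most 5 fragments in any library. IL34, IL5 and IL6 were listed at 0 in all 6 libraries, which allows up to 3 fragments in each. No row was found under the symbols CSF2, IL3 and IGF2, so the levels of these ligands are not known here.

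Other genes of the pathways were taken from 3 further lists, and none of their genes passed limma at the adjusted p. Of 14 partner and related receptors 7 were tested, with a median log2 fold change of -0.032, of which 5 were below 0 and 2 above. IL2RG, the common chain of lymphoid cytokine receptors, was highest with 36.1 ± 2.46 FPKM in control and 37.4 ± 1.30 FPKM in I13 cells (SD, n = 3). IGF2R, which clears IGF2, had 11.7 ± 0.466 and 11.3 ± 0.837 FPKM, and the insulin receptor INSR had 6.35 ± 0.151 and 6.32 ± 0.151 FPKM. IL5RA, the interleukin-5 chain that also pairs with CSF2RB, was listed at 0. At an unadjusted p under 0.05 limma found 0 of the 7.
Of 20 adaptors and kinases next to the receptors 19 were tested, with a median log2 fold change of -0.054, of which 14 were below 0 and 5 above, and 0 had an unadjusted p under 0.05. The adaptors GRB2 and CRKL and the PI3 kinase subunit PIK3CD were highest. GRB2, which links receptors to RAS, had 86.3 ± 3.93 FPKM in control and 86.9 ± 3.32 FPKM in I13 cells (SD, n = 3), CRKL 41.9 ± 1.25 and 41.6 ± 1.31 FPKM, and PIK3CD 33.0 ± 1.31 and 31.7 ± 1.79 FPKM.
Of 17 negative regulators, chaperones and processing enzymes 16 were tested, with a median log2 fold change of 0.029, of which 11 were above 0 and 5 below. HSP90AB1 and HSP90AA1, chaperones that stabilize kinases, had 887 ± 5.58 and 259 ± 12.1 FPKM in control and 892 ± 4.88 and 284 ± 29.5 FPKM in I13 cells. IGFBP4, which binds insulin-like growth factors, had 127 ± 7.85 and 130 ± 8.05 FPKM. CDC37, the cochaperone that brings kinases to HSP90, was the only gene of the lists with an unadjusted p under 0.05. It had 37.8, 39.1 and 40.4 FPKM in the control and 44.2, 43.2 and 45.0 FPKM in the I13 libraries. All I13 values were above all control values, with a log2 fold change of 0.18 and a standard error of 0.046 (unadjusted p = 0.0061, adjusted p = 0.805 by limma). In the 4 libraries CDC37 was at 0.21, and in the pair at 0.099. Over the 3 lists and the ligands, 1 of 43 genes tested was higher at the unadjusted p and 0 were lower, near the 2.55% and 2.59% of all genes. Groups did not overlap for 1 higher gene (CDC37) and 2 lower genes (VAV1 and SLA), against 4.88% and 4.64% of all genes tested.

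**Figure D4:**
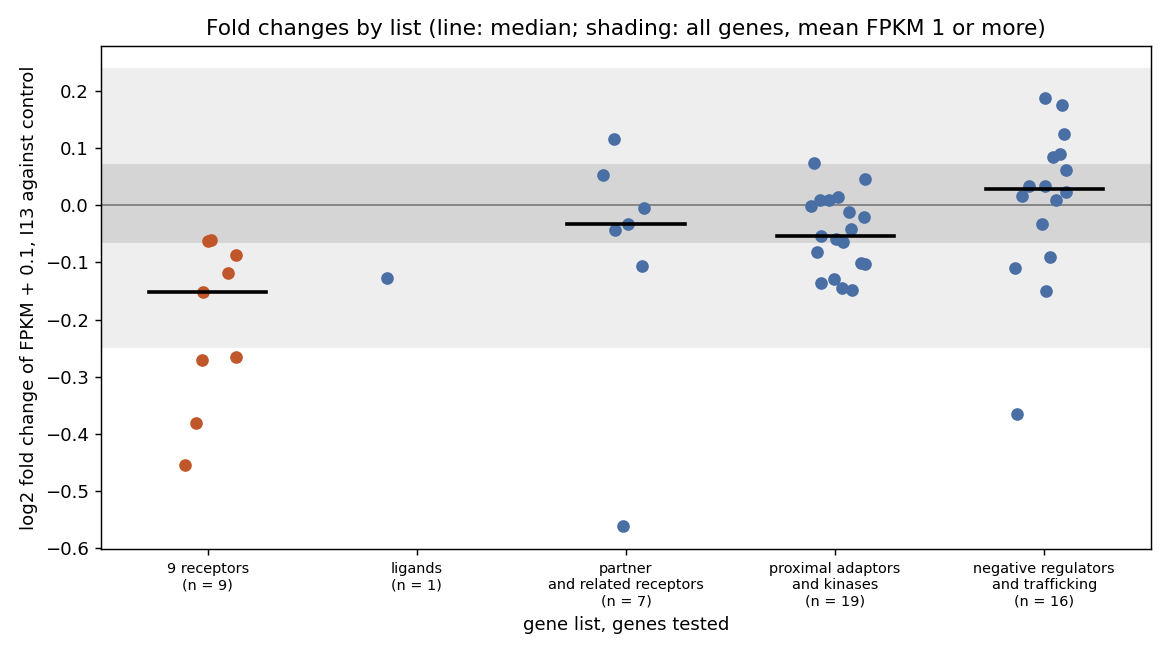
Log2 fold change of FPKM + 0.1, I13 against control, for the tested genes of the 9 receptors and of the 4 pathway lists, with a line at each median where more than 1 gene was tested. Dark and light shading mark the middle 50% and 90% of the 11517 genes that averaged 1 FPKM or more, which reach from -0.064 to 0.070 and from -0.25 to 0.24, and CSF1R, IL6R and CSF3R lie below the light band. CSF2RA lies lower too but averages under 1 FPKM, and the middle 90% of all 18726 genes tested reaches from -0.74 to 0.72, a range that holds all 9 receptors.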

How the data were processed

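mRNA of 6 Kasumi-1 samples (3 control, 3 I13, grouped by sample title) was sequenced from stranded libraries. The authors deposited 1 table of FPKM values, without pooling replicates. The submitters' processing notes name hg38, Trimmomatic, HISAT2, Cufflinks and HTSeq. Their versions, the annotation release and the strand setting are not stated in any source at hand. No exon of the 9 receptors shares bases with an exon of another gene in GENCODE release 29. Whole fragments, within a tolerance of 0.01, were recovered for 25773 of 27002 genes above 0 (95.4%) from GENCODE exon lengths, and for 1322 genes with another length.

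Differences were computed with limma 3.58.1 in R 4.3.3 on log2(FPKM + 0.1) with a variance trend and without a block, and exact permutation tests with scipy 1.17.1. Voom used the 13853 genes that averaged 10 or more fragments, with the recovered depths. The scripts were tested on simulated data. Replicates differed by more than sampling noise (chi-square per gene from 3.14 to 8.35). Intervals at 95% come from limma, and the counting errors and upper limits cover counting error only.

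The members and lists were chosen with earlier results of these data known. Named were all 9 receptors, ligands, co-receptors, the 3 highest genes of each list, list genes with an unadjusted p under 0.05, and the 5 genes most like KIT. VAV1, SLA and the markers CTSG, ANPEP and CD33 were named after their values were seen. Alternatives were other pseudocounts, filters, scalings and variance settings, each library left out, a replicate block, a term for the library pair, the 4 libraries alone, and voom.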

Additional observations from a re-analysis of the deposited data

How the results depend on the processing

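No alternative brought any of the 9 receptors past the adjusted p and the fold threshold together. The log2 fold changes of CSF1R, CSF3R, CSF2RA, CSF2RB, IL6R and IGF1R were below 0 under all alternatives. CSF1R ranged from -0.52 to -0.37 and CSF3R from -0.29 to -0.21. With each library left out in turn, KIT ranged from -0.11 to 0.0040 by limma and to 0.0037 by voom, FLT3 from -0.25 to 0.077 by limma and from -0.26 to 0.075 by voom, and IL3RA from -0.23 to 0.017 by limma and from -0.24 to 0.016 by voom, and the values above 0 came without I13 replicate 2 for KIT and FLT3 and without control replicate 3 for IL3RA. On only the 4 libraries FLT3 was at 0.018 by limma and 0.015 by voom, and IL3RA at 0.039 by both. At these values neither direction can be given. CSF2RA was not tested with a minimum mean of 1 FPKM, and had an unadjusted p of 0.072 with no filter, 0.0816 with a replicate block, 0.0564 with the term for the library pair and 0.0511 by voom. Of 26 alternatives with a p-value, 11 gave CSF2RA an unadjusted p under 0.05, among them limma without the trend (0.00937). For IL6R 3 of 27 did, among them limma without the trend (0.0283), where 2.36% of all genes were lower at that rule. The adjusted p stayed above 0.41 for both genes.

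Of the 4 pathway lists, where limma found 0 lower and 1 higher gene at the unadjusted p, 1 lower gene was found without the trend, 1 lower and 2 higher by voom and by voom with the replicate block, 2 lower and 3 higher with the term for the pair, 3 lower and 2 higher on the 4 libraries, 6 lower and 3 higher by voom with the term and 3 lower and 3 higher by voom on the 4 libraries. Of all genes, limma without the trend gave 2.36% lower and 2.41% higher, voom 2.81% and 2.58%, and voom with the replicate block 2.44% and 2.24%. The term gave 3.92% of all genes lower and 3.7% higher by limma and 5.22% and 4.94% by voom, and the 4 libraries gave 4.07% and 4.51% by limma and 4.89% and 6.12% by voom. With each library left out the list genes lay between 0 and 3 lower and between 0 and 3 higher, against 1.88% to 4.14% and 1.88% to 5.44% of all genes. Non-overlapping genes of these lists were 8 lower and 8 higher of 43 on the 4 libraries, where 16.9% and 21.0% of all genes did not overlap, and between 2 and 9 lower and between 1 and 5 higher with 1 library left out, where 7.87% to 11.1% and 8.19% to 13.9% of all genes did not. The ratio differences moved by more than 1 SD in 3 cases, to 0.080 for CSF2RB to CSF2RA and to 0.066 for IL6ST to IL6R with a pseudocount of 1, and to -0.60 for CSF2RA to IL3RA on the 4 libraries. The replicate numbers are shared between groups. Deviations from the group means correlated at 0.32 for replicate 1, and at -0.38 and -0.30 for replicates 2 and 3, over 4133 genes, which are not independent. The split into a pair and 4 other libraries shapes these correlations. They cannot show whether samples of the same number belonged together. With the replicate block the log2 fold changes stayed at -0.46 for CSF1R and -0.27 for CSF3R with unadjusted p-values of 0.00804 and 0.00603 and an adjusted p of 1.00 for both by limma. Voom with the block gave adjusted p-values of 0.0611 and 0.175. The voom fits with the pair term, with the replicate block, on the 4 libraries and with 1 library left out were chosen after the data were seen. The pair itself was taken from the first principal component of these same libraries. Every fit with the pair term or on the 4 libraries, by limma or voom, therefore uses a split drawn from the tested data.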
